A study of Homo sapiens with 4 samples.

Results

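The digestive enzymes of the intestinal brush border were examined at 7 gene neighbourhoods: SI, LCT together with its neighbour MCM6, DPP4, ANPEP, TREH, MGAM and ENPEP. Each neighbourhood is a window of the hg19 genome that holds the gene with about 50 kb on either side, and a peak was a member when its midpoint fell in a window. Of the 5060 peaks of replicate 1, 12 were members, and of the 4955 peaks of replicate 2, 10 were members. With overlapping peaks joined, they made up 16 distinct regions of 7108 in all. The peaks come from chromatin immunoprecipitation followed by sequencing (ChIP-seq) in Caco2, an established line from a human colorectal tumour that can take on features of absorptive intestinal cells. The cells were grown in low glucose medium with serum and no treatment is named, so there was 1 condition, with 2 HNF1 libraries and 2 input libraries made without antibody. The antibody field of both HNF1 libraries names HNF1, whereas the extraction text names FOXA2, and these targets cannot be told apart from the peak lists, so HNF1 here follows the antibody field and the titles. The catalogue number in that same field may itself be one of a FOXA2 antibody, which was not checked here, so the target behind every peak below is uncertain.

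Enterocytes carry digestive enzymes in the membrane of their microvilli, where the last steps of carbohydrate and protein digestion take place. The disaccharidases SI (sucrase-isomaltase), MGAM (maltase-glucoamylase), LCT (lactase) and TREH (trehalase) split sugars, and the peptidases DPP4 (dipeptidyl peptidase 4), ANPEP (aminopeptidase N) and ENPEP (glutamyl aminopeptidase) shorten peptides. MCM6 encodes a subunit of the replicative DNA helicase and stands in this group because its introns are known to hold an enhancer of LCT. HNF1 is a homeodomain factor that binds as a dimer to a palindromic sequence, GTTAAT and ATTAAC with 1 base between them, and HNF1 binding to the SI promoter is known from earlier work on that gene.

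Because no hg19 sequence was used here, the peaks themselves are given by position, and the sequences shown are promoters from RefSeq in the GRCh38.p14 build. Of the 8 genes, 7 were matched by symbol, with 8 promoters, since ANPEP has 2. LCT had no promoter entry, so its promoter was not searched. Each promoter of 300 bases, from 250 before to 50 after the annotated start, was searched on both strands for this palindrome with at most 2 mismatches over its 12 fixed bases. SI and MGAM had such a match, that is 2 of 8 promoters, against 1.31% of all 35116 promoters. At most 1 mismatch was found in 0 of the 8 and in 0.145% of all. The 250 bases upstream of the SI and MGAM starts and of the inner ANPEP start are shown with their motif matches. The DPP4 stretch has no match within 3 mismatches and is shown only as that of the locus with the most peaks. In hg19, the nearest peak lay 3.2 kb from the 5′ edge of SI and 15.2 kb from that of MGAM, with edges good to about 1 kb. Positions were not converted between the builds, so whether a peak covers any of these stretches was not tested directly. The ENPEP stretch, which also has a match with 3 mismatches, is not shown. Capitals mark the best motif match where it had at most 3 mismatches. The stretches are SI chr3:165078497-165078746, minus strand, MGAM chr7:141995629-141995878, plus strand, ANPEP chr15:89806629-89806878, minus strand, and DPP4 chr2:162074216-162074465, minus strand.
SI: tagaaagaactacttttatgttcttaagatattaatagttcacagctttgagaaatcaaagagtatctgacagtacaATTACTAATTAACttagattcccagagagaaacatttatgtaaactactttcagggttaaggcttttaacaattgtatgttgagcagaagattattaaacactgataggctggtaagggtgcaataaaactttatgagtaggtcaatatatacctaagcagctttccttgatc
MGAM: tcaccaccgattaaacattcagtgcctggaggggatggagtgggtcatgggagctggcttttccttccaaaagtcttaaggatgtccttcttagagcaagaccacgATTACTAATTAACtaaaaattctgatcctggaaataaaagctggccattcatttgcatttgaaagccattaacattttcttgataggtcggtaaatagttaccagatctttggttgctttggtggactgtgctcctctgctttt
ANPEP inner promoter: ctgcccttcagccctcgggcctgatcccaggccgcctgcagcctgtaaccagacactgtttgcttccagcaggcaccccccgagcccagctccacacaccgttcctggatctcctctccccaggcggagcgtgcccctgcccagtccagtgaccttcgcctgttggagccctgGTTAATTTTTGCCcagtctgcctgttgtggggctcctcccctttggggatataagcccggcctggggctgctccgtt
DPP4: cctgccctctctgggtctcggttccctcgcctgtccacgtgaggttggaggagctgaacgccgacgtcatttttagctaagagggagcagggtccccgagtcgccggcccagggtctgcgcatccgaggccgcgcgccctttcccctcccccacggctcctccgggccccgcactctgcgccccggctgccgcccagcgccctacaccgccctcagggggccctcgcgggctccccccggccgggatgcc

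The SI and MGAM promoters held the same match, ATTACTAATTAAC, which differs from the motif by G1A and A5C, with positions counted from 1 at the motif's 5′ end. It began 173 bases before the SI start and 144 bases before the MGAM start, in the direction of transcription in both. An exact copy of these 13 bases, on either strand, was found in 2 promoters of the 35116, and those 2 were SI and MGAM. The longest run the promoters had in common was 14 bases, ATTACTAATTAACT. This sequence was singled out after the match had been seen. The inner ANPEP promoter matched as GTTAATTTTTGCC with 3 mismatches (A8T, A11G and A12C), 77 bases before its start. ENPEP also matched with 3 mismatches, and 7.56% of all promoters matched at least that well. The best matches of DPP4, MCM6 and TREH had 5 mismatches, as few as or fewer than which were found in 69.8% of all promoters, and that of the outer ANPEP promoter had 6. The DPP4 stretch was rich in G and C, at 73.6% of its bases, whereas that of SI was at 31.6% and that of MGAM at 41.6%. A match is a description of letters, and says nothing about binding.

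Across the 7 neighbourhoods, DPP4 held most of what was found in both libraries. Of the 16 distinct regions, 6 were found in both lists, and 4 of these lay at DPP4, 1 at ANPEP and 1 at ENPEP. That is 37.5% of the member regions, against 2905 of all 7108 distinct regions, or 40.9%. SI, LCT with MCM6, MGAM and TREH had peaks in 1 library or the other but no position in common. Replicate 1 had at least 1 peak in 7 of 7 windows and replicate 2 in 6 of 7, where TREH was the exception. No tile share was counted for a single list. With both lists joined, 7 of 7 windows held at least 1 distinct region and 3 of 7 at least 1 found in both lists. Tiling the genome in windows of 187 kb, the median length of the 7, gave at least 1 distinct region in 28.1% of 15573 windows and at least 1 region found in both lists in 14.6%. These tiles also fill gene deserts and assembly gaps, whereas the 7 windows were each drawn around a gene, so the shares are a background and not a like-for-like comparison.

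Recurrence at these loci stood near that of the whole lists. In replicate 1, 6 of 12 member peaks (50%) overlapped a replicate 2 peak by at least 1 bp, against 57.5% of all replicate 1 peaks. In replicate 2, 6 of 10 (60%) overlapped a replicate 1 peak, against 58.6% of all. Within the 6 pairs the midpoints lay 8 to 94 bp apart. Scores were also near those of the lists, where a score is a peak's tag number per 10000000 tags of its library. The median score was 11 in the members of replicate 1 against 12 in the whole list, and 14 against 11 in replicate 2. Members found in both lists had a median score of 19 in each replicate, and those of 1 list alone had 9 in replicate 1 and 13.5 in replicate 2. Over all peaks, the corresponding medians were 15 and 14 for peaks in both lists and 9 in each replicate for peaks of 1 list alone. Each replicate is 1 library with 1 list, so scores carry no standard deviation, and no difference between loci was tested.

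**Figure D1:**
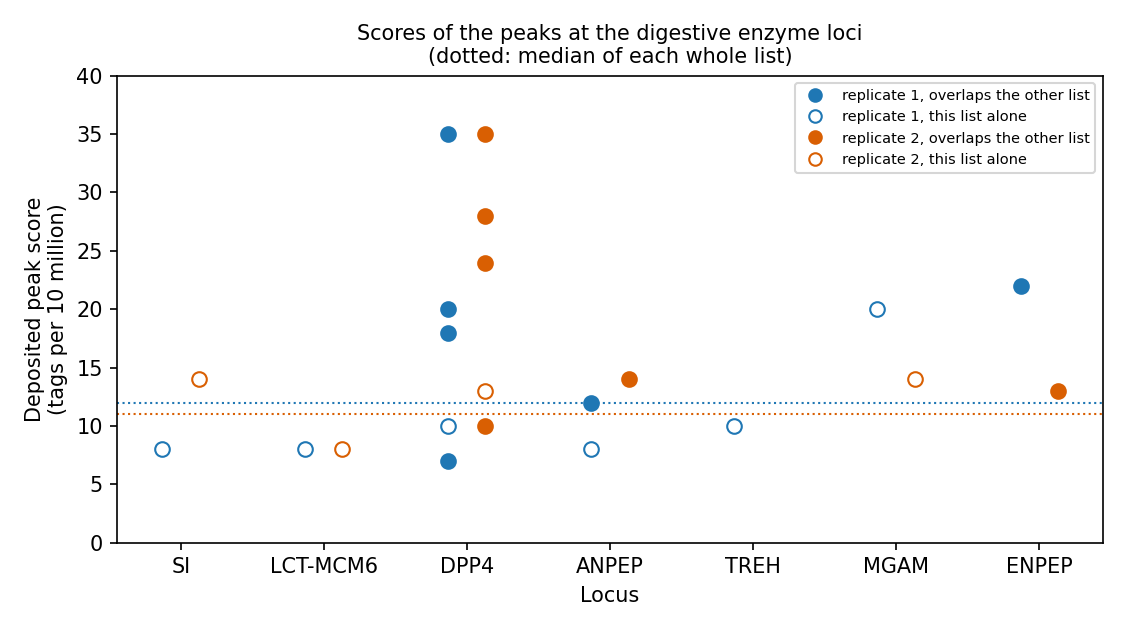
Deposited peak score (tags per 10000000, vertical axis) of each of the 12 replicate 1 peaks (blue) and 10 replicate 2 peaks (orange) by locus, with filled points for peaks that overlap the other list, open points for peaks of 1 list alone and dotted lines at the medians of the whole lists (12 and 11). The highest points, 35 in each replicate, are at DPP4, and the points at LCT-MCM6 are at 8 in both.

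Of the 16 regions, 8 lay between the edges of the gene itself and 8 in the flanks. The gene spans made up 520 kb of the 1220 kb in the windows, and the counts were not tested against these lengths. The edges are those the window limits give after taking off 50 kb, so distances to them are good to about 1 kb, and exons and introns were not assigned. Of the 8 inside, 2 were found in both lists, and of the 8 in the flanks, 4 were. A region in a flank may lie nearer to another gene, and neighbours in RefSeq are named below for some of them.

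**Figure D2:**
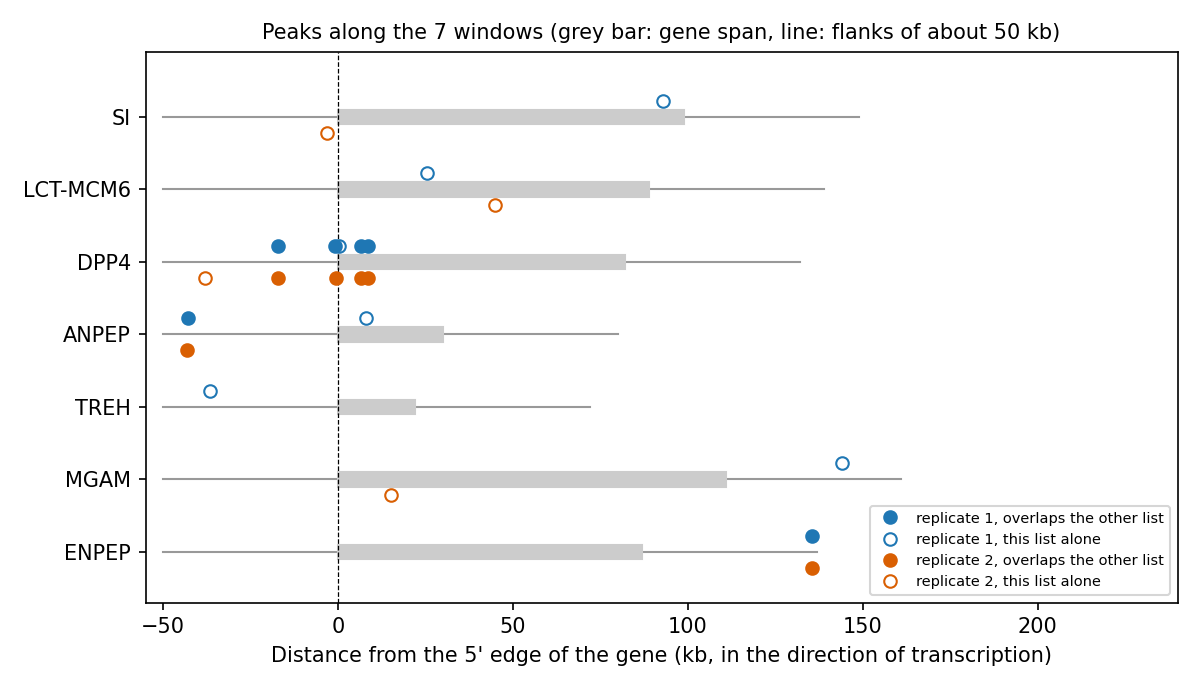
Position of the peaks (horizontal axis, kb from the 5′ edge of the gene in the direction of transcription, 0 at the dashed line) in each of the 7 windows, with replicate 1 above and replicate 2 below each line, the gene span as a grey bar and the flanks as a thin line. For LCT-MCM6 the 5′ edge is that of MCM6. Filled points, found in both lists, stand around the 5′ edge of DPP4 and in the outer flanks of ANPEP and ENPEP.

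Among the disaccharidases, SI, the enzyme that splits sucrose and starch fragments, had 1 peak in each list, at different places. The replicate 2 peak at chr3:164799088-164799314 lay 3.2 kb upstream of the 5′ edge of SI and scored 14, a level reached by 36.9% of that list. The replicate 1 peak at chr3:164703079-164703221 lay inside the gene, 6.1 kb from its 3′ edge, and scored 8, a level reached by 94.9% of its list. The nearest replicate 2 peak was 96.1 kb from it. Windows of the SI length held at least 2 distinct regions in 11.3% of tiles. Neither list had a peak closer to the 5′ edge of SI than 3.2 kb, although its promoter carries the motif match shown above. What a list leaves out was below the calling limits, which does not show that it was unbound.

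MGAM, the second alpha-glucosidase of the brush border, also had 1 unmatched peak in each list. Replicate 2 had a peak at chr7:141711055-141711281, inside the gene and 15.2 kb downstream of its 5′ edge, with a score of 14. Replicate 1 had a peak at chr7:141840000-141840142 with a score of 20, 33.1 kb beyond the 3′ edge, on the side where MGAM2 is the next protein-coding gene. This was the highest score among member peaks of 1 list alone, and 22.5% of the replicate 1 list scored at least as high. The MGAM peaks were 128.9 kb apart. Windows of the MGAM length held at least 2 distinct regions in 11.9% of tiles.

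At LCT and MCM6 each library had 1 peak between the outer edges of the gene pair, and both scored 8. The replicate 1 peak at chr2:136608582-136608724 lay 25.3 kb from the upper edge of the pair, which is the 5′ edge of MCM6. The replicate 2 peak at chr2:136589045-136589271 lay 44.8 kb from that edge, towards LCT. They were 19.5 kb apart and neither had a partner. No position of the LCT enhancer in the MCM6 introns was used here, so whether either peak covers it was not tested. A score of 8 was near the lower end of both lists, since 94.9% of replicate 1 peaks and 89.9% of replicate 2 peaks scored at least as high. By the library totals, it stands for about 9.5 tags in replicate 1 and 14.8 in replicate 2, just above the thresholds of 9 and 13 tags in the file headers. Windows of this length held at least 2 distinct regions in 10.5% of tiles.

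TREH, which splits trehalose, had the fewest peaks of the 7 loci. A single replicate 1 peak with a score of 10 lay at chr11:118586641-118586783, 36.7 kb upstream of the 5′ edge, and the nearest replicate 2 peak was 313.6 kb from it. No peak of either list lay between the edges of TREH. At least 1 distinct region was present in 20.4% of tiles of that length.

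The peptidase DPP4, which removes dipeptides from the N-terminus of peptides, including incretin hormones, had the most peaks and the highest scores of the 7 loci. Its window held 5 peaks of each replicate, which formed 6 distinct regions, 4 of them found in both lists. Among tiles of the same length, 0.25% of 16004 held at least 6 distinct regions and 0.162% held at least 4 found in both. These shares describe the genome and are no test, since the windows were not drawn at random. Within the top 10% of their list ranked 1 of the 12 replicate 1 members and 2 of the 10 replicate 2 members, and these 3 peaks were all at DPP4. By definition, at most 10% of each whole list ranks there.

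Inside DPP4, a pair of regions found in both lists lay 1.9 kb apart. The region at chr2:162922291-162922530, 8.6 kb downstream of the 5′ edge, scored 18 and 35 in replicates 1 and 2. The region at chr2:162924184-162924410, 6.7 kb downstream of the 5′ edge, scored 20 in replicate 1 and 28 in replicate 2. In replicate 2 they were the 2 highest of the locus, at levels reached by 3.29% and 6.32% of that list. In replicate 1 they stood lower, at levels reached by 28.3% and 22.5%.

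Upstream of DPP4, another strong region lay at chr2:162948155-162948381, 17.3 kb from the 5′ edge, on the side where GCG, the glucagon gene, is the next protein-coding gene. It scored 35 in replicate 1, the highest member score of that list, and 24 in replicate 2. At least as high a score was found in 6.56% of replicate 1 peaks and 10.2% of replicate 2 peaks. The order of the 3 strong DPP4 regions was thus reversed between the libraries: the upstream region led in replicate 1, and the region 8.6 kb inside the gene led in replicate 2. With 1 library a replicate, and tags counted in windows of 142 bp and 226 bp, this difference in order was not tested.

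Close to the 5′ edge of DPP4 the signal was weaker. The region at chr2:162931552-162931830, centred 0.7 kb upstream of the edge, was found in both lists with scores of 7 and 10, and its peaks overlapped by 91 bp. The score of 7 was the lowest of the member peaks, and 99.8% of the replicate 1 list scored at least as high. It stands for about 8.4 tags, which is below the threshold of 9 tags in the file header, so this shared call rests on a replicate 1 peak at the limit of calling. A replicate 1 peak at chr2:162930530-162930672 lay 0.4 kb inside the edge with a score of 10 and had no partner. Farther out, a replicate 2 peak at chr2:162968979-162969205, 38.1 kb upstream of the edge, scored 13 and had no partner either. From the first to the last region found in both lists, the DPP4 group spanned 25.9 kb.

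**Figure D3:**
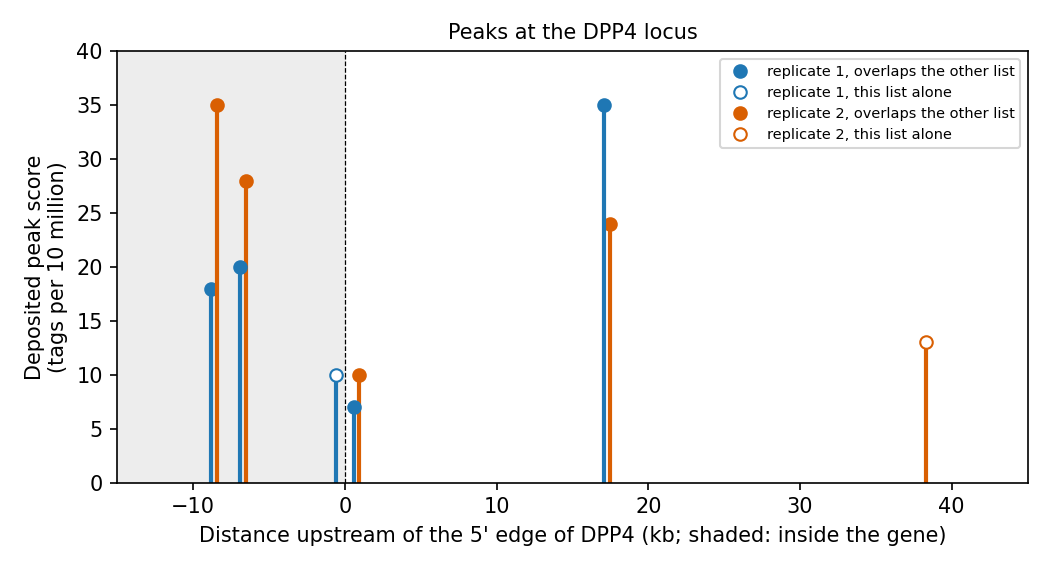
Deposited peak score (tags per 10000000, vertical axis) of the DPP4 peaks against their distance upstream of the 5′ edge (kb, horizontal axis, negative inside the gene, shaded), for replicate 1 in blue and replicate 2 in orange, with filled heads for peaks that overlap the other list. Stems of a pair are set apart sideways so that both can be seen. The tallest stems, 35 each, stand 17.3 kb upstream in replicate 1 and 8.6 kb inside the gene in replicate 2.

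ANPEP, an aminopeptidase also known as CD13, had 1 region in both lists and 1 peak in replicate 1 alone. The region found in both lay at chr15:90400941-90401167, 43 kb upstream of the 5′ edge, and scored 12 in replicate 1 and 14 in replicate 2. The next protein-coding gene on that side is the ARPIN-AP3S2 readthrough, so this region is in the flank and not in ANPEP itself. The replicate 1 peak at chr15:90349862-90350004 lay inside ANPEP, 8.1 kb from the 5′ edge, and scored 8, with the nearest replicate 2 peak 51.1 kb from it. In RefSeq, the starts of the outer and inner ANPEP promoters are 8.2 kb apart, measured in GRCh38.p14. The inner one is the promoter shown above with the GTTAATTTTTGCC match. Positions were not converted between the builds, so whether this peak covers that promoter was not tested. Among tiles of the ANPEP length, 6.6% held at least 2 distinct regions and 10.6% at least 1 found in both.

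ENPEP, which removes acidic residues from the N-terminus of peptides, had 1 region, and it was at the far end of the window. It lay at chr4:111532337-111532563, 48.5 kb beyond the 3′ edge of ENPEP. Its score was 22 in replicate 1 and 13 in replicate 2, and the midpoints were 8 bp apart, the closest of the 6 pairs. Neither list had a peak between the edges of ENPEP or upstream of it within the window. A window of this length held at least 1 distinct region in 28.1% of tiles and at least 1 found in both lists in 14.6%.

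**Figure D4:**
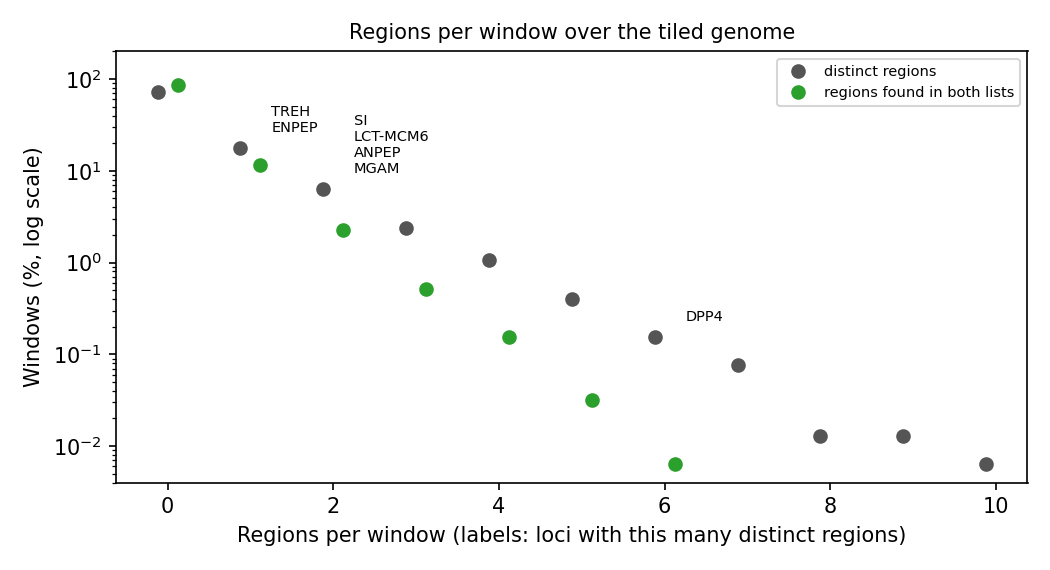
Share of genome tiles of 187 kb (vertical axis, percent, log scale) by the number of regions they hold (horizontal axis), for distinct regions in grey and regions found in both lists in green, with the loci written beside the number of distinct regions in their own windows. DPP4 stands at 6, where 0.154% of tiles are, and the other loci at 1 or 2. Points at 0% are not drawn.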

How the data were processed

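The 2 deposited peak lists from Caco2 ChIP-seq, 1 per HNF1 library of 2, were used; the 2 inputs entered only through peak calling. Per the file headers, the authors called each library separately against an input with HOMER findPeaks in factor mode, at a false discovery rate of 0.001 and 4-fold over input. Bowtie 1.0.0, HOMER 1.2 and hg19 are named without roles, per the submitters' processing notes. The libraries held 11931439 and 18469659 tags, per the file headers. The deposited score is a peak's tag count scaled to 10000000 tags by the authors and rounded, so that 1 tag was worth 0.838 in replicate 1 and 0.541 in replicate 2. Peak widths were 143 bp and 227 bp, so scores and recurrence also carry the calling settings. Nothing says whether the replicates were separate cultures.

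Members were peaks with their midpoint in the windows. All of them are named, those in both lists in full. Peaks overlapping by at least 1 bp were joined, and tiles covered each chromosome between its outermost peaks. Ranks were taken within a list. No test was run, since there was 1 condition. Promoters came from RefSeq (GRCh38.p14). Counting of overlaps, windows and motifs was tested on simulated data. Members, windows and lists were chosen with earlier results of these data known. Alternatives were other overlap rules, flanks, score limits and mismatch limits. Positions count from 1. Python 3.11.15 and matplotlib 3.10.9 were used.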

Additional observations from a re-analysis of the deposited data

How the results depend on the processing

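The 6 regions found in both lists became 5 when at least 50% of both peaks had to overlap, which left out the DPP4 region next to the 5′ edge. They stayed at 6 with midpoints within 100 bp or all peaks at 200 bp, and numbered 4 in the better scored 50% of each list, 4 with flanks of about 25 kb and 7 with flanks of about 100 kb. Without flanks 2 were left, both inside DPP4. The number of loci with such a region, 3, fell to 1 with flanks of about 25 kb and to 1 without flanks, and was 2 to 4 under the other settings. The 16 distinct regions became 9 in the better scored 50% of each list and 8 without flanks. Leaving out a replicate gave 10 to 12, namely 10 without replicate 1 and 12 without replicate 2. Promoters with a motif match numbered 2 with at most 2 mismatches, 0 with at most 1 and 4 with at most 3 (SI, MGAM, ENPEP and the inner ANPEP promoter), against 0.145% and 7.56% of all promoters for the last 2 limits. No paired analysis was possible because no list of their own was used for the inputs and each HNF1 library has 1 list. Motifs within peaks and peaks at other brush border hydrolases, both planned, were not run because no hg19 sequence or annotation was used here. At scores of 7 and 8, a call rests on tags close to the threshold. The score of 7 at DPP4, part of 1 of the 6 regions in both lists, converts to about 8.4 tags against a threshold of 9. A score of 10 converts to about 11.9 tags in replicate 1, against 9, and to 18.5 in replicate 2, against 13.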

Other observations

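A stronger site lay just outside the SI window. The region at chr3:164851419-164851645 was found in both lists, scoring 14 and 31 in replicates 1 and 2, and the replicate 1 peak in it was centred 5.5 kb beyond the upstream limit of the window. Its replicate 2 score was above that of every SI peak within the window, and above every replicate 2 member score but the 35 at DPP4. A replicate 2 peak at chr3:164866720-164866946, farther upstream, scored 13 and had no partner. At the other loci the nearest peak outside a window was 63.6 kb or more from its limit, at TREH, and up to 450.3 kb at DPP4. Both upstream regions were looked up because wider flanks had been planned as an alternative. The next protein-coding gene upstream of SI is SLITRK3, and no position of it was used here.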
